A study of Mus musculus with 7 samples.

Results

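The 10 genes described here encode chemokines, small secreted proteins that attract cells bearing matching receptors: *Ccl17*, *Ccl22*, *Ccl5*, *Ccl20*, *Xcl1*, *Ccl2*, *Ccl11*, *Cxcl9*, *Cxcl13* and *Cxcl14*. They were taken by name from the 20839 genes listed in any of 7 single-cell libraries of mouse thymic epithelium. Of the 10, 9 were listed in all 7 libraries and *Xcl1* in 5, since a gene seen in fewer than 3 cells of a library was not listed there. As background, the thymic medulla is where positively selected thymocytes meet epithelial cells and dendritic cells that present self-antigens, and chemokines made by medullary thymic epithelial cells (mTECs) help to bring these cells together. CCL17 and CCL22 act on CCR4, XCL1 acts on XCR1 of cross-presenting dendritic cells, CXCL9 acts on CXCR3, CCL20 on CCR6 and CXCL13 on CXCR5. CCL5, CCL2 and CCL11 are classed as inflammatory chemokines that act on several receptors of the CCR family, and no receptor of CXCL14 is generally agreed.

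Each library came from 3 pooled thymi of female mice, sorted for EpCAM+ CD45- cells, so a time point was 1 library and had no replicate of its own. The lineage tracing library came from 6 week old C57BL/6 mice carrying Aire-CreERT2 and R26-CAG-Stopfl-zsGreen, in which tamoxifen (2 mg every other day for 10 days) permanently labels cells that used the *Aire* promoter. The isotype controls were C57BL/6 mice given 3 injections of 100 ug of a control antibody within 1 week, collected at week 2 (4 weeks old) and week 10 (12 weeks old). The anti-RANKL libraries came from C57BL/6 mice given 3 injections of 100 ug of an antibody to RANKL, a cytokine that mTECs need to mature, collected at weeks 2, 4, 6 and 10 (4, 6, 8 and 12 weeks old).

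The files held 8453 cells, of which 8220 had no UMI (unique molecule count) of *Ptprc*, the gene of CD45, and were used below. Median depth ranged from 4281 UMIs per cell at anti-RANKL week 6 to 17135 in the week 2 isotype control, and 50 of 8403 barcodes occurred in more than 1 library. Cells were put in 4 gates by the deposited natural log value: *Aire* above 1.5 (1769 cells), *Ccl21a* above 4 (3451 cells), *Trpm5* above 0 (545 cells) and *Krt10* above 1.5 (219 cells), with 2544 cells in none and 305 in several. Of the *Aire* gate's 6 mature mTEC markers all were detected in every library, with a summed level of 6802 to 10505 CPM there and 2727 to 4503 in the *Ccl21a* gate. Tuft cell markers summed to 1362 to 3954 in the *Trpm5* gate and at most 154 in the *Aire* gate. The *Krt10* gate went against its keratinocyte-like label in the anti-RANKL week 6 library, where 2 of 7 markers were detected at a summed 57.5 CPM, against 1042 to 15815 in the other libraries, while markers of cortical epithelium summed to 5187 there. Requiring no *Ptprc* UMI also removed tuft cells, since 90 of the 233 cells left out carried *Trpm5*.

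Levels are in CPM, the UMIs of a gene per 1000000 UMIs, summed over the cells of a gate or library. Gates were compared over the 28 sums of a gate and a library by limma on log2(level + 10), with the library as a block, and differences are given on that scale with the standard error (SE), n = 7 libraries per gate. A gene was tested where its mean level over the sums was at least 10, which 8811 genes and 8 of the 10 chemokines passed. *Ccl22* and *Xcl1* did not pass and are given by their levels. The adjusted p is the Benjamini-Hochberg value over all tested genes, called under 0.05. Because cells are gated within the same libraries, the tests measure how steady a difference was across these pools of mice, which is not a comparison of treatments.

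*Ccl11* and *Cxcl14* were the chemokines of the *Ccl21a* gate. *Ccl11* encodes eotaxin, best known for drawing eosinophils through CCR3. Its level in the *Ccl21a* gate had a lowest value of 62.6, a median of 514 and a highest of 1401, against 1.68, 13.5 and 156 in the *Aire* gate. In the *Trpm5* gate the lowest, median and highest levels of *Ccl11* were 0, 6.09 and 661, and in the *Krt10* gate 0, 8.65 and 169. The *Ccl21a* gate was the highest of the 4 in 7 of 7 libraries, although the ranges across libraries overlapped. *Ccl11* was higher in the *Ccl21a* gate than in the *Aire* gate by 3.38 (SE 0.55, limma adjusted p = 2.8e-05), than in the *Krt10* gate by 3.53 (adjusted p = 8.4e-05) and than in the *Trpm5* gate by 3.06 (adjusted p = 0.00019). The value of 661 in the *Trpm5* gate belonged to the lineage tracing library and was 44.3 in the 47 *Trpm5* cells there that passed no other gate.

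*Cxcl14* encodes a chemokine made by many epithelia, skin included. Its level in the *Ccl21a* gate had a lowest value of 73.2, a median of 104 and a highest of 226. In the *Aire* gate the same values for *Cxcl14* were 2.52, 6.42 and 21.2, so that the ranges of the gates did not overlap. *Cxcl14* in the *Krt10* gate ranged from 5.58 to 56.2 and in the *Trpm5* gate from 1.85 to 79.0. *Cxcl14* was higher in the *Ccl21a* gate than in the *Aire* gate by 2.69 (SE 0.34, adjusted p = 1.1e-06), than in the *Krt10* gate by 1.96 (adjusted p = 0.00024) and than in the *Trpm5* gate by 1.86 (adjusted p = 0.00025). The other gates were not separated in *Cxcl14* by the test (adjusted p of 0.86 for *Trpm5* against *Krt10*, 0.092 for *Krt10* against *Aire* and 0.073 for *Trpm5* against *Aire*), and their order by the median (*Trpm5*, *Krt10*, *Aire*) was reversed in cells of exactly 1 gate. There *Cxcl14* ran from 0 to 35.8 in the *Trpm5* gate, from 0 to 24.5 in the *Krt10* gate and from 3.01 to 16.3 in the *Aire* gate. Of all UMIs in cells without *Ptprc*, the *Ccl21a* gate held 92.9% for *Ccl11* and 93.3% for *Cxcl14* over all libraries together, of which the lineage tracing library gave 67.2% and 43.6%. In the isotype controls of weeks 2 and 10 the gate held 88.8% and 80.6% of the *Ccl11* UMIs and 70.2% and 77.5% of the *Cxcl14* UMIs. The 5 cortical epithelial markers also stood higher in this gate, at a summed 2719 to 4232 against 167 to 906 in the *Aire* gate, of which *Ctsl*, not particular to the cortex, was 2461 to 3936. The more specific *Prss16* and *Psmb11* were 95.2 to 234 and 18.5 to 106 in the *Ccl21a* gate against 32.9 to 138 and 9.07 to 26.8 in the *Aire* gate. The part of cortical cells in the *Ccl11* and *Cxcl14* levels was not tested.

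The other 8 chemokines had their highest median level in the *Aire* gate, most clearly *Ccl17*, *Ccl22* and *Cxcl13*. *Ccl17*, a CCR4 ligand also known as TARC, had a lowest level of 22.4, a median of 69.0 and a highest of 155 there. In the *Ccl21a* gate *Ccl17* ran from 0.204 to 8.48 and in the *Krt10* gate from 0 to 14.4, so that neither overlapped the *Aire* gate. *Ccl17* was lower than in the *Aire* gate by -2.53 in the *Ccl21a* gate (SE 0.35, adjusted p = 3.3e-06), by -2.59 in the *Krt10* gate (adjusted p = 2.8e-06) and by -1.45 in the *Trpm5* gate (adjusted p = 0.0031). The *Trpm5* gate had a median of 9.25 for *Ccl17* and a highest value of 211, at anti-RANKL week 6, where 1 cell that also passed the *Aire* gate held 96.6% of the UMIs. *Ccl17* was higher in the *Trpm5* gate than in the *Ccl21a* gate by 1.08 (adjusted p = 0.026), and by 0.35 (adjusted p = 0.33) without the cell with the most *Ccl17* in each sum, a setting that moved the median of all genes from 0.04 to -0.09. The call was also lost without the lineage tracing library (adjusted p = 0.052), anti-RANKL week 6 (0.11) or anti-RANKL week 10 (0.11).

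*Ccl22* encodes MDC, the other CCR4 ligand, and lies 58.8 kb before *Ccl17* on chromosome 8 with *Cx3cl1* as the only protein-coding gene between them. Its *Aire* gate levels were 30.02 after lineage tracing, 25.9 and 35.1 in the isotype controls of weeks 2 and 10, and 15.1, 31.8, 31.9 and 35.1 at anti-RANKL weeks 2, 4, 6 and 10, where the week 4 value came from 1 cell. It was at most 4.44 in the *Ccl21a* gate and 4.27 in the *Krt10* gate, below every *Aire* gate value, and at most 18.2 in the *Trpm5* gate. The spread of *Ccl22* over the 7 *Aire* gates (29.3 ± 6.998, SD, n = 7) was narrower relative to its mean than that of *Ccl17* (77.0 ± 43.8, SD, n = 7). With no filter on low values *Ccl22* was lower by -1.64 in the *Ccl21a* gate than in the *Aire* gate (limma adjusted p = 1.6e-06), by -1.82 in the *Krt10* gate and by -1.35 in the *Trpm5* gate. Of the *Ccl22* UMIs in cells without *Ptprc*, 52.0% lay in cells of no gate and 44.1% in the *Aire* gate over all libraries together, where *Ccl17* had 70.2%. By library the *Aire* gate held from 8.04% to 67.0% of *Ccl22* and from 37.7% to 84.5% of *Ccl17*, with the larger share for *Ccl22* in the week 10 isotype control (66.2% against 37.7%) and at anti-RANKL week 4 (6 of 9 UMIs against 11 of 25).

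*Cxcl13* encodes the ligand that guides CXCR5-bearing B cells and follicular T cells. *Aire* gate cells had 187 CPM of *Cxcl13* in the lineage tracing library, 137 and 149 CPM in the isotype controls, and 85.5, 0, 42.2 and 68.5 at anti-RANKL weeks 2, 4, 6 and 10. Both isotype controls and the lineage tracing library lay above all 4 anti-RANKL values. The 0 at week 4 came from 22 cells and 188883 UMIs, for which 3 counts would be 15.9 CPM. *Cxcl13* in the *Ccl21a* gate had a median of 4.84 and a highest value of 27.3. *Cxcl13* was lower than in the *Aire* gate by -2.32 in the *Ccl21a* gate (SE 0.43, adjusted p = 0.00014), by -2.05 in the *Krt10* gate (adjusted p = 0.00053) and by -1.57 in the *Trpm5* gate (adjusted p = 0.0084, and 0.062 without the lineage tracing library). The *Aire* gate held 82.8% of the *Cxcl13* UMIs of cells without *Ptprc*.

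*Cxcl9* encodes an interferon-induced ligand of CXCR3, a receptor of activated and innate-like T cells. Its level in the *Aire* gate had a lowest value of 133, a median of 314 and a highest of 430. In the *Ccl21a* gate these values for *Cxcl9* were 56.6, 107 and 263, and the *Aire* gate was the higher of the pair in 7 of 7 libraries. The difference of *Cxcl9* between the *Ccl21a* and *Aire* gates was -1.32 (SE 0.55) and missed the threshold (adjusted p = 0.063). *Cxcl9* was lower in the *Trpm5* gate than in the *Aire* gate by -1.48 (adjusted p = 0.0498) and in the *Krt10* gate by -1.40 (adjusted p = 0.047), both next to the threshold. With 1 library left out, the first call was lost without any library but the lineage tracing one (adjusted p from 0.059 to 0.17), and the second without any but the lineage tracing and anti-RANKL week 2 ones (0.10 to 0.16). In the *Krt10* gate *Cxcl9* was 959 at anti-RANKL week 2, of which 99.4% came from 1 cell that also passed the *Aire* gate, and 5.58 without that cell.

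*Xcl1* encodes lymphotactin, the ligand of XCR1. Its *Aire* gate level was 0.953 after lineage tracing (2 UMIs), 30.3 and 17.6 in the isotype controls, and 13.4, 0, 0 and 27.3 at anti-RANKL weeks 2, 4, 6 and 10. The values above 10 rested on few cells, since *Xcl1* was found in 80 of the 8220 cells in all and the 2 cells with the most held over 50% of its 662 UMIs. Without the cell with the most *Xcl1* in each gate, the isotype controls were at 6.61 and 10.97, the week 10 anti-RANKL library at 10.2 and the week 2 one at 0. The *Aire* gate held 90.6% of the *Xcl1* UMIs, the *Ccl21a* gate 3.78%, and the *Krt10* gate none. Over all 8453 cells *Xcl1* had 1289 UMIs, and the cell with the most, 357 at anti-RANKL week 10, carried 1 *Ptprc* UMI and was therefore left out above.

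*Ccl20*, *Ccl5* and *Ccl2* were spread over several gates. *Ccl20*, the ligand of CCR6, was lower in the *Ccl21a* gate than in the *Aire* gate by -2.53 (SE 0.69, adjusted p = 0.0052) and higher in the *Krt10* gate than in the *Ccl21a* gate by 2.41 (adjusted p = 0.013). Its level had a lowest, median and highest value of 0, 109 and 329 in the *Aire* gate, 0, 107 and 1104 in the *Krt10* gate, 0, 53.7 and 172 in the *Trpm5* gate, and 0.408, 6.89 and 17.6 in the *Ccl21a* gate. The 329 and the 172 belonged to anti-RANKL week 2 and rested on the same cell with 364 *Ccl20* UMIs, which held 92.9% and 97.8% of the UMIs, and were 23.5 and 3.70 without it. At 1104, in the week 2 isotype control, 76.7% of the *Krt10* gate's *Ccl20* came from 1 of 30 cells, and without the cell with the most UMIs in each sum the difference between the *Krt10* and *Ccl21a* gates was 0.97 (adjusted p = 0.067). That setting takes more from gates of few cells, and over all genes it moved the median of this comparison from -0.04 to -0.37. The call was also lost without the isotype control of week 2 (adjusted p = 0.083) or week 10 (0.058) or without anti-RANKL week 10 (0.051). The order of the *Aire*, *Krt10* and *Trpm5* gates by the median was not separated by the test for *Ccl20* (adjusted p of 0.91 for *Krt10* against *Aire* and 0.44 for *Trpm5* against *Krt10*).

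*Ccl5* encodes RANTES, a chemokine that T cells and natural killer cells also make. *Ccl5* in the *Aire* gate was 527 and 589 in the isotype controls, 366 after lineage tracing, and 2137, 858, 157 and 711 at anti-RANKL weeks 2, 4, 6 and 10. In the *Ccl21a* gate *Ccl5* had a lowest value of 36.7, a median of 125 and a highest of 607, and in the *Krt10* gate 0, 148 and 9933. No pair of gates differed in *Ccl5* by the test, with the largest difference, -2.02 for the *Ccl21a* gate against the *Aire* gate, at an SE of 0.95 (adjusted p = 0.0997). The 9933 in the *Krt10* gate of anti-RANKL week 2 rested on 1 cell with 1777 *Ccl5* UMIs that also passed the *Aire* gate, and was 22.3 without it. The same cell held 69.7% of the *Aire* gate's *Ccl5* in that library, where the 2137 became 647 without it.

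*Ccl2*, the CCR2 ligand that recruits monocytes, differed between no pair of gates, with adjusted p from 0.054 (*Trpm5* against *Aire*, -1.58, SE 0.60) to 0.83 (*Krt10* against *Ccl21a*). Its median level was 34.0 in the *Aire* gate, 20.2 in the *Ccl21a* gate, 4.27 in the *Krt10* gate and 1.04 in the *Trpm5* gate. *Ccl2* was detected more often in the *Ccl21a* gate, where the median share of cells with a UMI was 9.13%, than in the *Aire* gate, where it was 4.74%.

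**Figure D1:**
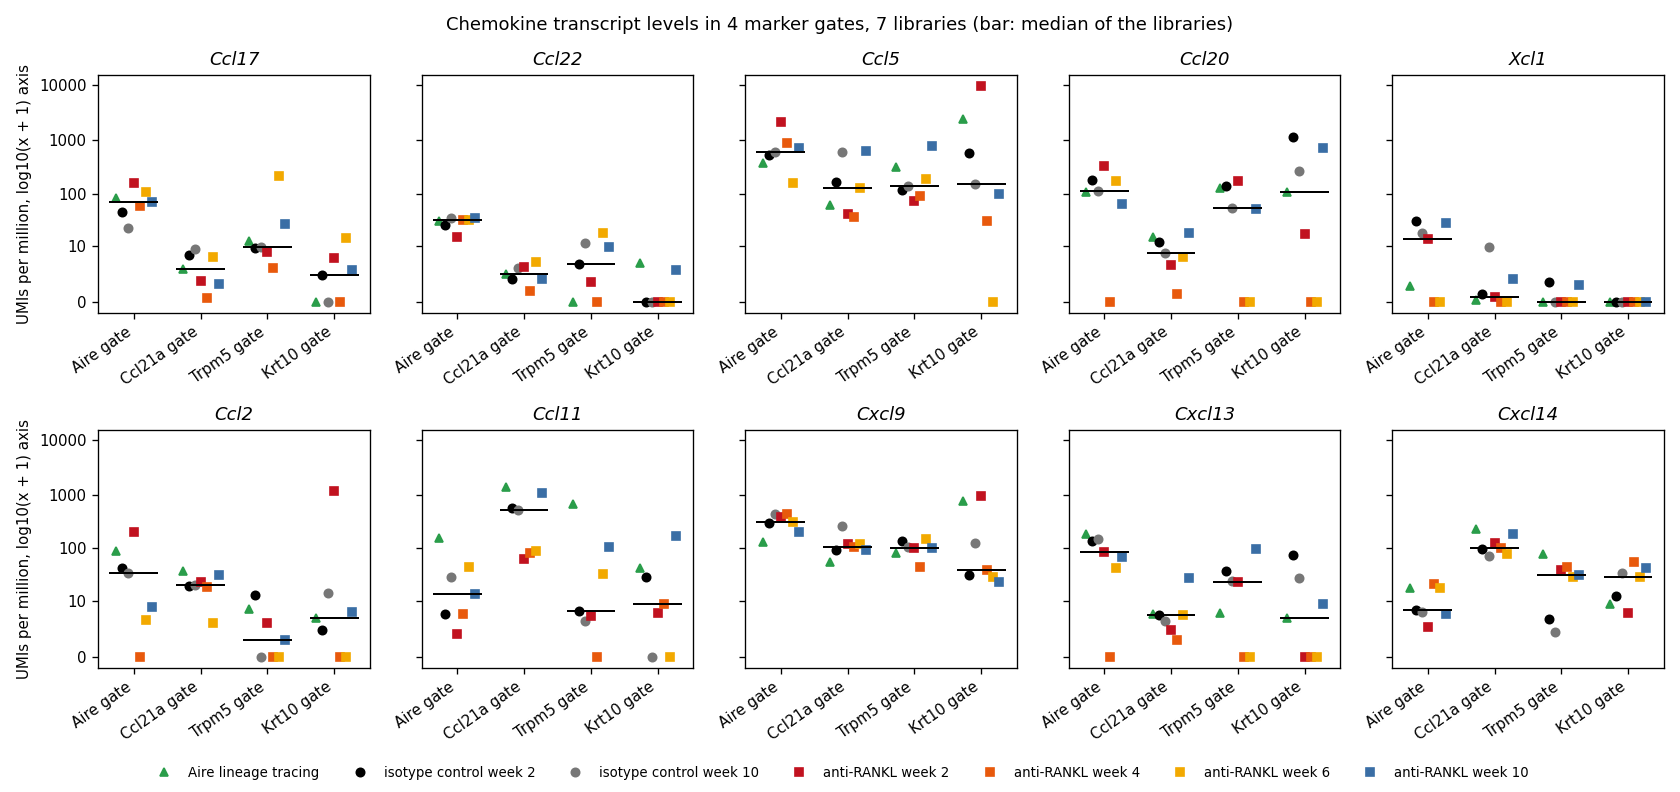
Level of each of the 10 chemokine genes (CPM, axis in log10 of the level plus 1) in the *Aire*, *Ccl21a*, *Trpm5* and *Krt10* gates; each point is 1 of 7 libraries and the bar is their median. *Ccl11* and *Cxcl14* have their highest bar in the *Ccl21a* gate (514 and 104), *Ccl17*, *Ccl22*, *Xcl1*, *Cxcl9* and *Cxcl13* in the *Aire* gate, and single points of *Ccl5* and *Ccl2* stand far above the rest in the *Krt10* gate. Both of these points are anti-RANKL week 2 and rest on the same 1 cell, which also passed the *Aire* gate.

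Read against all genes, the counts of called chemokines were 2 higher and 3 lower of 8 for the *Ccl21a* gate against the *Aire* gate, where 21.8% of tested genes were higher and 16.3% lower. For the *Krt10* gate against the *Aire* gate they were 0 higher and 3 lower (23.4% and 18.0% of all genes), and for the *Trpm5* gate against the *Aire* gate 0 higher and 3 lower (18.2% and 8.88%). Against the *Ccl21a* gate, 1 was higher and 2 were lower in the *Krt10* gate (12.1% and 13.6% of all genes) and likewise in the *Trpm5* gate (13.8% and 8.95%). *Ccl17* alone was called between the *Trpm5* and *Krt10* gates, higher by 1.14 in the *Trpm5* gate (adjusted p = 0.018; 16.0% of genes higher and 8.75% lower), by 0.56 (adjusted p = 0.068) without the cell with the most *Ccl17* in each sum (where the median of all genes moved from 0.09 to 0.30), and with an adjusted p of 0.061 without anti-RANKL week 10. The median difference of all genes was 0.10 for the *Ccl21a* gate, 0.06 for the *Krt10* gate and 0.13 for the *Trpm5* gate against the *Aire* gate, and with size factors by the median of ratios it was -0.03, -0.06 and -0.02. That scaling also turned the balance of calls over all genes, from 1917 higher and 1436 lower to 1418 and 1910 for the *Ccl21a* gate, from 2065 and 1583 to 1617 and 2116 for the *Krt10* gate, and from 1604 and 782 to 973 and 1245 for the *Trpm5* gate, each against the *Aire* gate.

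The share of cells with a UMI was compared between gates as deposited and at equal depth. *Ccl17* was found in a median of 11.7% of *Aire* gate cells per library (9.09% to 30.6%) and 1.88% of *Ccl21a* gate cells (0.106% to 2.86%). After every cell was thinned to 2000 UMIs, which leaves out 177 shallower cells, the medians for *Ccl17* were 4.55% and 0.571%. Depth differed between the gates, with a median of the libraries' medians of 10103 UMIs per cell in the *Aire* gate and 7282 in the *Ccl21a* gate. *Ccl11* was found in a median of 32.2% of *Ccl21a* gate cells (7.63% to 76.8%) and 5.46% of *Aire* gate cells (3.23% to 43.2%), and after thinning in 21.6% and 1.82%. The highest of both ranges for *Ccl11* was the lineage tracing library, so that the share in the *Aire* gate was high where that in the *Ccl21a* gate was. Free RNA gives UMIs in cells that do not express a gene, and its part in the lower shares was not tested. Of the 10 chemokines, 7 had their highest median share in the *Aire* gate and 3 (*Ccl2*, *Ccl11*, *Cxcl14*) in the *Ccl21a* gate, with and without thinning, while with other gate thresholds the highest share of *Ccl20* was in the *Krt10* gate.

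All 10 genes were protein-coding genes of 3 or 4 exons in GENCODE vM21 on GRCm38, the build of the files. *Ccl22* (chr8:94745590-94751699) and *Ccl17* (chr8:94810453-94812036) were neighbours on the plus strand. *Ccl2* (chr11:82035571-82037453) and *Ccl11* (chr11:82057823-82062955) lay 20.4 kb apart on the plus strand with *Ccl7* between them, and *Ccl5* (chr11:83525778-83530518) lay further along on the minus strand. *Cxcl9* (chr5:92321347-92328079, minus) and *Cxcl13* (chr5:95956951-95961068, plus) shared chromosome 5, *Ccl20* (chr1:83116766-83119167, plus) and *Xcl1* (chr1:164931644-164935527, minus) chromosome 1, and *Cxcl14* (chr13:56288643-56296551, minus) was alone.

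RefSeq (GRCm38.p6) gave the sequence before the start of 7 of the 10 genes (not *Ccl5*, *Ccl2* and *Ccl11*). Because the genes split between the *Aire* and *Ccl21a* gates, these stretches, of 156 to 250 bases, were searched on both strands for the kappa-B motif of NF-kappaB, for TTCNNNGAA (the spacing of STAT sites) and for TATAAA, and no gene held more than 1 of the 3. They are shown 5′ to 3′ for 2 genes of the *Aire* gate, for *Ccl20* as the 1 gene with a kappa-B match, and for *Cxcl14* of the *Ccl21a* gate, each as the 250 bases before the RefSeq start with matches in capitals.
*Ccl17*, chr8:94810203-94810452 (plus): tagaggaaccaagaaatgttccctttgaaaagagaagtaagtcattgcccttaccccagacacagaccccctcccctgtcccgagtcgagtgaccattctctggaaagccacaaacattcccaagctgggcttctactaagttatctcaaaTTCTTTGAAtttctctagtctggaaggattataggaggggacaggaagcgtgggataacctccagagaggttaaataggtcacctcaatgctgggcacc
*Cxcl13*, chr5:95956689-95956938 (plus): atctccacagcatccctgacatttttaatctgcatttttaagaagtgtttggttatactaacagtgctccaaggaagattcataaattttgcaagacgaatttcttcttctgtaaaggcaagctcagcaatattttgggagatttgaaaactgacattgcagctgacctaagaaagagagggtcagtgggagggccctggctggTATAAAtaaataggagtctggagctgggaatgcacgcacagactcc
*Ccl20*, chr1:83116516-83116765 (plus): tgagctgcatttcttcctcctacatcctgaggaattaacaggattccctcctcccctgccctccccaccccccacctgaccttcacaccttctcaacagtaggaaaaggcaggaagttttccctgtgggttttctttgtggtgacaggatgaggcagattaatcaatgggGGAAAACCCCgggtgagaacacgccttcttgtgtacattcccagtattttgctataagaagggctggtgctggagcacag
*Cxcl14*, chr13:56296552-56296801 (minus): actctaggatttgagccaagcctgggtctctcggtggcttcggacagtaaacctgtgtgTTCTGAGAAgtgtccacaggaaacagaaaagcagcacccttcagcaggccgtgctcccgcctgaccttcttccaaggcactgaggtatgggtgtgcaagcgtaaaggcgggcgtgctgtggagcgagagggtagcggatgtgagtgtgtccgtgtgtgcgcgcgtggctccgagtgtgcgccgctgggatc
*Ccl17* and *Cxcl14* held TTCNNNGAA, present in 7.02% of 32851 stretches of this length, and so did no other of the 7. TATAAA, in 12.4% of stretches, was found for *Cxcl9* and *Cxcl13*, and the kappa-B motif, in 3.90%, for *Ccl20* alone. Of the *Aire* gate genes, *Cxcl9* and *Cxcl13* thus shared TATAAA, while *Ccl17* and *Cxcl13* shared no motif, and TTCNNNGAA occurred before a gene of either gate. With no sequence for *Ccl11*, the *Ccl21a* gate was represented by *Cxcl14* alone, so the gates could not be compared. A match describes these letters and shows no binding.

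The number of cells that held a chemokine's UMIs differed between the genes. The fewest cells that held 50% of a gene's UMIs, of the 8220 without *Ptprc*, were 2 for *Xcl1*, 18 for *Ccl17*, 19 for *Ccl22*, 23 for *Ccl2*, 27 each for *Ccl20* and *Cxcl13*, and 43 for *Ccl5*. They were 124 for *Ccl11*, 191 for *Cxcl9* and 214 for *Cxcl14*, over libraries that gave unequal parts of each gene's UMIs, the lineage tracing library 67.2% for *Ccl11* against 8.03% for *Cxcl9*. Of the sums of a member with at least 10 UMIs in a library, 1 cell held at least 50% in 16 of 58 in the *Aire* gate, 8 of 50 in the *Ccl21a* gate, 16 of 36 in the *Trpm5* gate and 13 of 20 in the *Krt10* gate, and in 6 of 65 over all cells without *Ptprc*. Of the cells with *Ccl17*, 63.0% had 1 UMI, while 25 cells with 20 or more held 58.5% of the total. *Ccl5* was detected in 34.9% of cells, and 294 cells with 20 or more UMIs held 86.6% of its 46381 UMIs. *Cxcl14* was the opposite case, with 12 cells of 20 or more UMIs holding 7.60%.

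**Figure D2:**
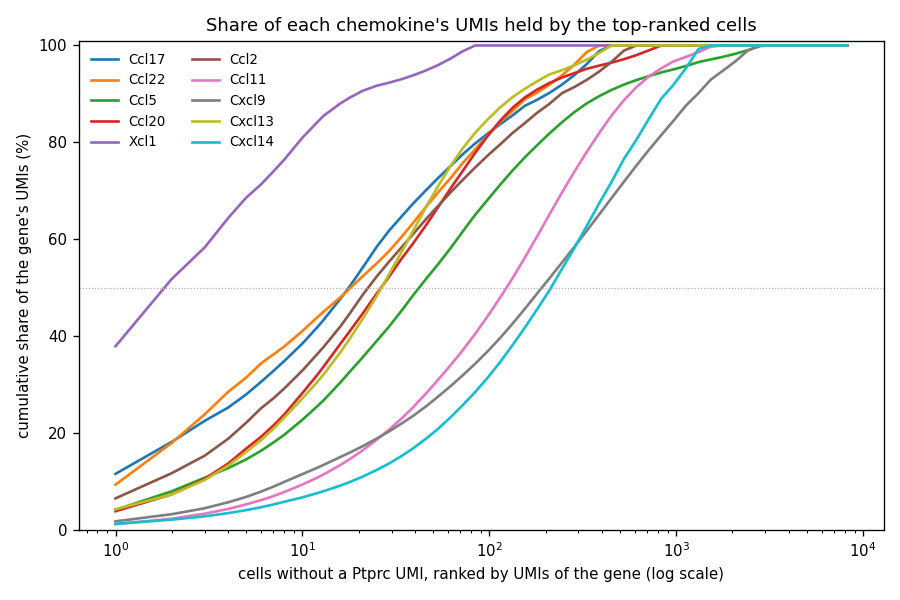
Cumulative share of each chemokine's UMIs (y axis, percent) over the cells without a *Ptprc* UMI of all 7 libraries, ranked by UMIs of that gene (x axis, number of cells, log scale). The curves of *Xcl1*, *Ccl17* and *Ccl22* reach 50% within 2, 18 and 19 cells and that of *Cxcl14* after 214.

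The cells richest in a chemokine differed in the other markers they carried. The cell with the most *Ccl17* (238 UMIs of 12851, week 2 isotype control) passed the *Aire* gate and had no UMI of *Ccr7* or *Flt3*, markers of migratory dendritic cells. The next (136 *Ccl17* UMIs, week 10 isotype control) passed no gate and carried 64 *Ccr7* and 4 *Flt3* UMIs with 1 each of *Epcam* and *Krt8*. For *Ccl22*, the second richest of all 8453 cells (158 UMIs, lineage tracing) carried 2 *Ptprc* and 33 *Ccr7* UMIs and no *Krt8*, whereas the richest (170 UMIs, week 2 isotype control) had 16 *Epcam* and 26 *Krt8* UMIs with 1 of *Ccr7*. The cell with the most *Ccl5* (1926 UMIs of 25437, anti-RANKL week 10) had 61 *Krt8*, 11 *Ccr7* and no *Ptprc* UMIs. Another, at anti-RANKL week 2, combined 1300 *Ccl5* with 157 *Ccl22*, 45 *Krt8* and 17 *Ccr7* UMIs.

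Of the 8220 cells, 512 (6.23%) carried a *Ccr7* UMI. They held 53.3% of the *Ccl22* UMIs, 39.7% of *Ccl5*, 31.2% of *Ccl2*, 30.5% of *Ccl17*, 20.2% of *Xcl1*, 17.5% of *Ccl20*, 16.9% of *Cxcl9* and 13.6% of *Cxcl13*, against 9.29% of all UMIs, and 1.71% of *Ccl11* and 1.11% of *Cxcl14*. Cells with a *Flt3* UMI (89 cells, 1.65% of all UMIs) held 19.9% of *Ccl17*, 18.1% of *Ccl22* and 8.72% of *Ccl5*. In the *Aire* gate the 8 markers of dendritic cells and macrophages summed to 382 to 947 CPM, of which *Lyz2* alone was 321 to 704. *Itgax* and *Flt3* were at most 1.30 and 5.11 there and at 0 in 3 libraries and 1 library. Others of the list were found more widely over the 8220 cells, *Ccr7* in 512 and *Fcer1g* in 855 against 89 for *Flt3*. Cells with a UMI of *Fcer1g*, of the same list, held 47.6% of the *Ccl17* UMIs and 52.0% of the *Xcl1* UMIs against 14.1% of all UMIs, and cells with *Lyz2* held 90.3% of *Xcl1* and 79.4% of *Cxcl13* against 42.7%. Single cells weighed on these shares. The cell with the most *Xcl1* (251 UMIs, 37.9% of the total) carried 1 UMI each of *Fcer1g* and *Lyz2*. That with the most *Ccl17* (11.6% of the total) carried 2 of *Fcer1g*. T cell markers summed to 5.29 to 68.8 in the *Aire* gate, with *Cd3e* at most 7.55. Over the 8220 cells *Cd3e* was found in 88, *Cd3g* in 142 and *Cd3d* in 195. *Ncr1*, the defining marker of natural killer cells, was at 0 in every gate and library, although natural killer and innate-like T cell markers reached 180 in the 22 *Aire* gate cells of anti-RANKL week 4. The part of such cells in the levels was not tested beyond leaving out every cell with an immune marker UMI (*Cd3d*, *Cd3e*, *Cd3g*, *Cd79a*, *Lyz2* or *Fcer1g*). That step left out 3041 of the 8220 cells, among them the 2494 with *Lyz2*. By library these were 723 of 1129 and 649 of 1247 cells in the isotype controls of weeks 2 and 10. At anti-RANKL weeks 2, 4, 6 and 10 they were 367 of 1184, 124 of 1451, 167 of 719 and 622 of 1172. The effect of losing such unequal parts of the libraries was not tested. After that step (at least 20 cells left in the *Aire* gate of 4 libraries and the *Krt10* gate of 3) *Ccl17* was still lower in the *Ccl21a* gate than in the *Aire* gate by -1.47 (adjusted p = 0.014), while *Ccl20* (-1.37, adjusted p = 0.058) was no longer called. Nor was *Ccl17* between the *Krt10* and *Aire* gates (-1.30, adjusted p = 0.073), between the *Trpm5* and *Ccl21a* gates (0.31, 0.56) or between the *Trpm5* and *Krt10* gates (0.13, 0.87). The calls of *Ccl20* between the *Krt10* and *Ccl21a* gates (0.92, adjusted p = 0.34), of *Cxcl13* between the *Trpm5* and *Aire* gates (-0.89, 0.15) and of *Cxcl14* between the *Krt10* and *Ccl21a* gates (-1.12, 0.10) were lost as well, while *Ccl2*, *Ccl5*, *Cxcl9* and *Cxcl14* gained calls between other pairs.

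Chemokines detected in the same cells were counted over all libraries, which differ in depth and composition, so the counts are descriptive. Of 411 cells with *Ccl17* and 357 with *Ccl22*, 81 had both, where 23.5 would follow from the shares in each library. Within the *Aire* gate alone 57 cells had both and 27.5 would follow, and after thinning 11 against 3.00. This was not particular to the pair. In the thinned *Aire* gate *Ccl17* was found with *Ccl20* in 15 cells against 4.80, although with *Cxcl9* in 18 against 22.5. *Ccl5* and *Cxcl9* were found together in 1322 cells against 1067, and in the *Aire* gate in 664 against 628. In the *Ccl21a* gate *Ccl2* was found with *Ccl11* in 181 cells against 136 and with *Cxcl9* in 128 against 74.1, and after thinning in 48 against 32.1 and 23 against 10.5. *Ccl11* and *Cxcl14*, both of the *Ccl21a* gate, were together there in 510 cells against 464, and after thinning in 185 against 177.

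The level of each chemokine over all cells without *Ptprc* was followed through the anti-RANKL course, with 1 library per time and no test. An anti-RANKL value was counted as lower or higher where it was at least 2-fold beyond both isotype controls, over the 8536 genes that averaged 10 CPM or more, which *Xcl1* did not. In such sums fewer cells of a type and less RNA per cell cannot be told apart. The *Aire* gate was 40.4% and 44.0% of cells in the isotype controls of weeks 2 and 10 and 5.24%, 1.52%, 15.2% and 38.7% at anti-RANKL weeks 2, 4, 6 and 10. The *Ccl21a* gate was 14.2% and 16.7% of the control cells and 57.8%, 65.1%, 46.5% and 21.0% of the anti-RANKL cells. At week 2, 2 of 9 chemokines were lower (6.19% of all genes) and 1 was higher (5.51%). At week 4, 6 were lower (10.8% of all genes) and 1 was higher (7.92%), and at week 6, 5 were lower (8.17%) and 1 was higher (5.60%). At week 10 none was lower (0.105%) and 2 were higher (0.187%).

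*Cxcl13* was 82.5 and 81.6 in the isotype controls of weeks 2 and 10, and 9.50, 0.672, 11.8 and 45.9 at anti-RANKL weeks 2, 4, 6 and 10. Its fold below the lower control was 8.59, 121 and 6.92 at weeks 2, 4 and 6 and 1.78 at week 10, so that *Cxcl13* over all these cells was below both controls at each time. At week 6, 1 cell held 52.3% of the *Cxcl13* UMIs. Without cells with an immune marker UMI *Cxcl13* was 13.0 and 16.9 in the controls and 9.10, 0.751, 5.57 and 15.3 at weeks 2, 4, 6 and 10, with a mean of 9.99 that missed the filter, so that it was not counted there and the week 10 value lay between the controls. The week 4 value rested on 5 UMIs (95% Poisson interval 0.218 to 1.57 CPM, which covers counting error only).

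*Ccl20* was 250 and 103 in the controls and 49.2, 1.34, 41.0 and 135 at weeks 2, 4, 6 and 10 after anti-RANKL. It was 76.4-fold below the lower control at week 4 and between the controls at week 10. At anti-RANKL week 2, 1 cell held 364 of the 720 *Ccl20* UMIs. *Ccl22* stood at 30.04 and 26.5 in the controls and 15.3, 1.21, 10.7 and 25.4 in the anti-RANKL libraries, and *Ccl17* at 26.6 and 29.8 against 15.0, 3.36, 27.3 and 42.6. Both CCR4 ligands thus had their lowest value at week 4, 21.9-fold and 7.90-fold below the lower control, and at week 6 *Ccl22* was 2.48-fold below. Single cells decided other values of both. Without the cell with the most UMIs in each library, *Ccl22* was 22.2 and 23.9 in the controls and 4.58, 0.403, 9.38 and 17.9 after anti-RANKL, so that it was also counted as lower at week 2, as it was with means over cells, with thinning and without cells with an immune marker UMI. In the last setting *Ccl22* was 41.5 and 13.7 in the controls and 6.54 at week 10, and was counted as lower at week 10 as well. There it was 8.36 at week 6 and was no longer counted as lower at that time. For *Ccl17*, where 1 cell held 54.9% of the UMIs at week 6, these values were 15.6 and 19.3 against 11.1, 2.15, 12.3 and 34.5.

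*Ccl5* was 650 and 954 in the controls and 351, 82.3, 119 and 859 in the anti-RANKL libraries, 7.90-fold below the lower control at week 4. *Ccl5* was also counted as lower at week 2 with means over cells, with thinning, without the cell with the most UMIs and without cells with an immune marker UMI, where it was 305 and 783 in the controls and 48.1 at week 2. *Cxcl9* was 245 and 315 in the controls and 123, 88.9, 186 and 144 in the anti-RANKL libraries, so that it was below both controls at all 4 times, by 2.76-fold at week 4, and without cells with an immune marker UMI it was counted as lower at week 10 too (76.1 against 171 and 243). For *Ccl2* the controls were 48.4 and 26.5 and the anti-RANKL libraries 42.4, 20.3, 4.55 and 17.8, with the lowest value at week 6 rather than week 4. *Xcl1* was 15.2 and 9.75 in the controls and 1.23, 0, 0 and 16.8 after anti-RANKL. Single cells carried the controls, with 76.5% and 34.1% of the *Xcl1* UMIs in 1 cell each, and without it they were at 3.56 and 6.42, where 3 counts would be 0.403 CPM at week 4 and 0.804 at week 6.

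*Cxcl14* went the other way. It was 15.7 and 13.8 in the controls and 73.8, 70.6, 37.5 and 35.2 at anti-RANKL weeks 2, 4, 6 and 10, above both controls at every time and by 4.70-fold at week 2. *Ccl11* was 73.1 and 93.1 in the controls and 38.5, 57.0, 55.7 and 208, so that it was below both controls until week 6 and 2.23-fold above the higher one at week 10. Without cells with an immune marker UMI *Ccl11* was counted as lower at weeks 2, 4 and 6, and *Cxcl14* was no longer counted as higher at weeks 6 and 10. In the lineage tracing library, where the *Ccl21a* gate held 66.4% of cells, *Ccl11* was 882 and *Cxcl14* 140.

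**Figure D3:**
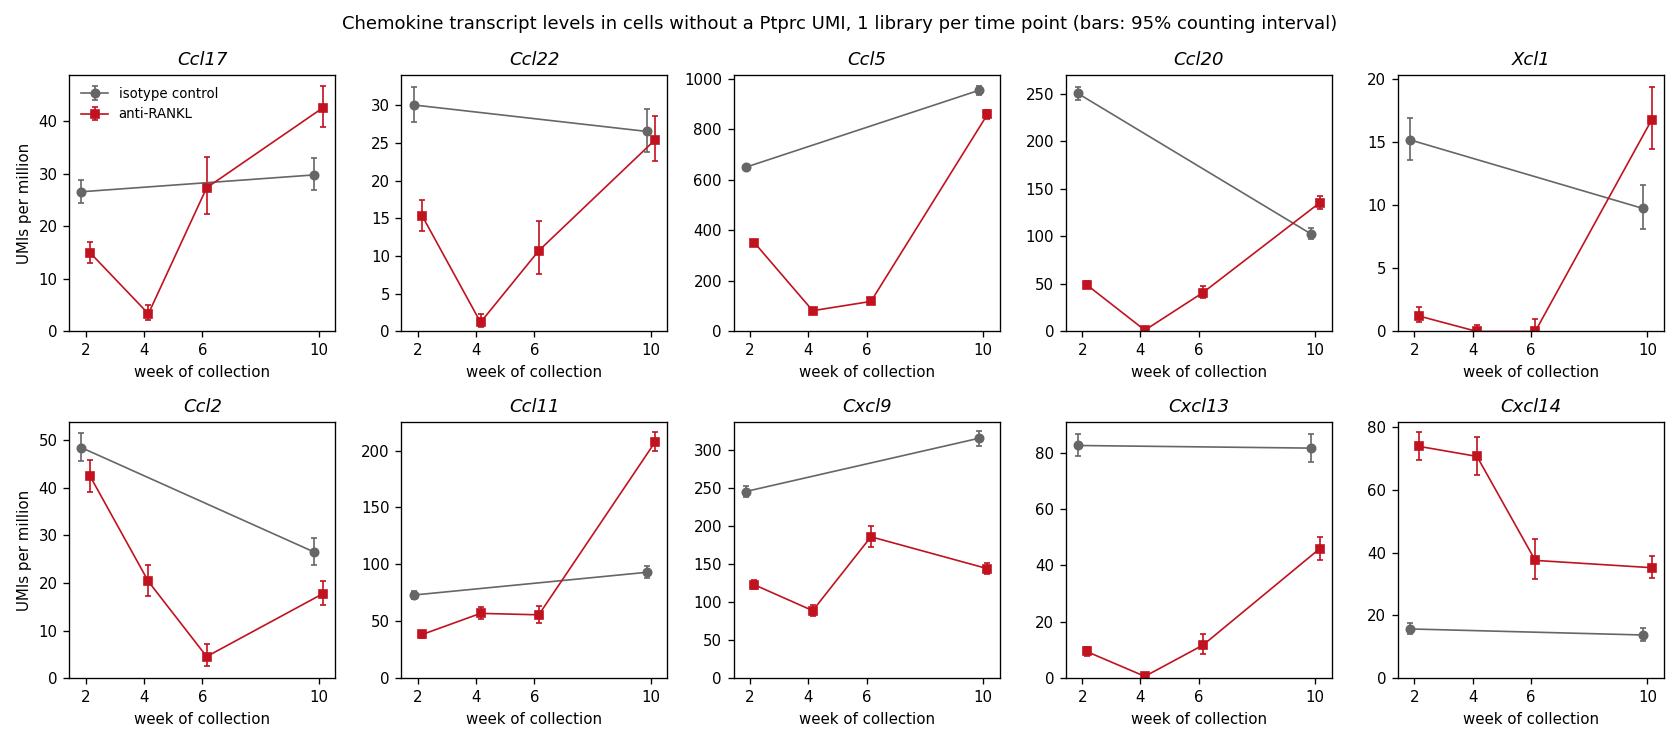
Level of each chemokine (CPM, y axis from 0) in all cells without a *Ptprc* UMI against the week of collection, for the isotype controls (grey circles, weeks 2 and 10) and anti-RANKL libraries (red squares, weeks 2, 4, 6 and 10); 1 library per point, bars are 95% Poisson intervals and lines only join points. *Cxcl13*, *Ccl20*, *Ccl22*, *Ccl17* and *Ccl5* reach their lowest value at week 4 (0.672 for *Cxcl13*), whereas *Cxcl14* lies above both controls at each time.

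Within the gates the course looked different. In the *Ccl21a* gate *Ccl11* was 565 and 514 in the isotype controls and 62.6, 82.4, 90.1 and 1054 at anti-RANKL weeks 2, 4, 6 and 10. The 95% Poisson intervals at weeks 2, 4 and 6 reached at most 106, and the fold below the lower control was 8.21, 6.24 and 5.71. At week 10 *Ccl11* stood above both controls in this gate by 1.86-fold. The share of *Ccl21a* gate cells with *Ccl11* was also below both controls at weeks 2, 4 and 6, at 51.9% and 32.2% in the controls and 11.5%, 7.63%, 12.0% and 58.9% in the anti-RANKL libraries. The share was lowest at week 4 and the level at week 2. These shares were not thinned. Median depth in this gate was 14340.5 UMIs per cell in the week 2 control and 4980 at anti-RANKL week 4. Without the cell with the most *Ccl11* in each sum, the controls were 473 and 427 and the anti-RANKL values 55.5, 66.3, 67.2 and 967. The lineage tracing library, of another genotype and treatment, had the highest level, 1401, and 76.8% of its *Ccl21a* gate cells had a *Ccl11* UMI.

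*Cxcl14* in the *Ccl21a* gate was 95.9 and 73.2 in the controls and 124, 104, 78.7 and 186 in the anti-RANKL libraries, so that no time was 2-fold beyond both controls. *Ccl5* in the *Ccl21a* gate was 164 and 597 in the controls and 42.1, 36.7, 125 and 607, and it was counted as lower at weeks 2 and 4. In that gate 1 cell held 70.9% of the *Ccl5* UMIs in the week 10 control and 67.4% at anti-RANKL week 10, and without the cell with the most in each sum the controls were 127 and 174 and the anti-RANKL values 40.4, 28.2, 63.4 and 198. Of the 5 chemokines with a mean of at least 10 in this gate, 2 were lower at each of weeks 2, 4 and 6 (1.39%, 2.45% and 2.81% of the 8080 genes), *Ccl11* each time, with *Ccl5* at weeks 2 and 4 and *Ccl2* at week 6. None was lower at week 10 (0.842%), and none was higher at weeks 2, 4, 6 or 10 (0.730%, 1.87%, 2.50% and 0.854% of all genes).

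In the *Aire* gate *Ccl17* was 44.7 and 22.4 in the isotype controls and 155, 58.2, 107 and 69.0 at weeks 2, 4, 6 and 10. All 4 anti-RANKL values were above both controls, by 3.47-fold at week 2 and 2.40-fold at week 6. Single cells weighed on these values: without the cell with the most *Ccl17* the controls were 22.2 and 20.6 and the anti-RANKL libraries 108, 10.6, 35.8 and 52.5. The 10.6 at week 4 was 2 UMIs, under the 15.9 that 3 counts give there, so that its place against the controls was not resolved. *Cxcl13* in this gate was 3.25-fold below the lower control at week 6, where 1 cell held 69.7% of the UMIs, and 2.00-fold at week 10, just short of the 2-fold line.

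Of the 10 chemokines, all with a mean of at least 10 in the *Aire* gate, 2 were lower and 3 higher at week 2 (3.63% and 2.75% of 8178 genes). *Ccl11*, lower at week 2 beside *Cxcl14*, rested on 2 UMIs there, at 1.68 CPM under the 2.52 that 3 counts give. At week 4, 3 were lower and 1 higher (10.9% and 8.99%), at week 6, 4 were lower and 2 higher (7.40% and 4.52%), and at week 10, 1 was lower and 0 higher (0.477% and 0.220%). The 3 lower at week 4 (*Ccl20*, *Ccl2* and *Cxcl13*) each had 0 UMIs and were counted at the 15.9 CPM that 3 counts give. *Cxcl14*, the 1 higher at week 4, also one of those lower at week 2 and higher at week 6, rested on 3, 4 and 14 UMIs at weeks 2, 4 and 6, and the 95% Poisson intervals at weeks 2 and 4 (0.519 to 7.35 and 5.77 to 54.2) held the week 2 control's 6.42, while the week 10 control's 5.72 lay within the first and just below the second. It passed the filter with a mean of 10.9, which was 9.23 without its highest library, and *Xcl1*, among those lower at week 6, with 12.8, which was 9.88. *Ccl2* was 42.6 and 34.0 in the controls and 203, 0, 3.83 and 7.24 in the anti-RANKL *Aire* gates, counted as higher at week 2 and lower at weeks 4, 6 and 10. The 3.83 at week 6 was the level of 3 UMIs. At anti-RANKL week 2, 1 cell held 86.0% of the *Ccl2* UMIs of this gate, and the level was 28.5 without it. Of the 3 counted as higher at week 2, *Ccl17* (108 without its top cell) was thus still above both controls, whereas *Ccl2* was not and *Ccl5* (647, against 441 and 530 in the controls without theirs) was above them by less than 2-fold. The gate held 62 cells at week 2 and 22 at week 4 against 456 and 549 in the controls.

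**Figure D4:**
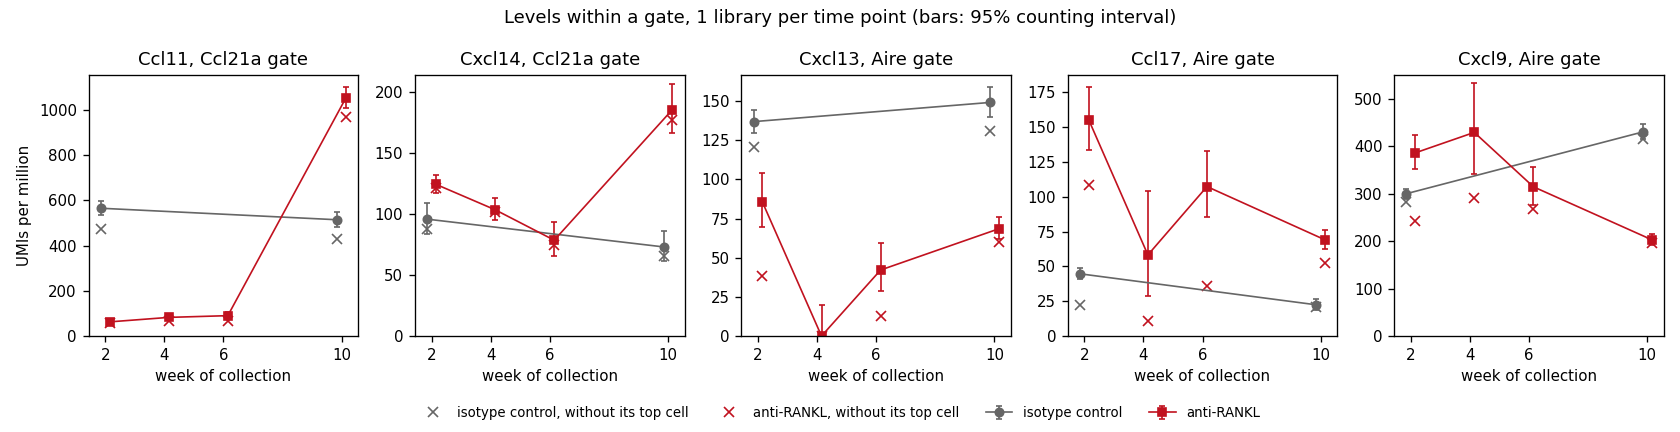
Level (CPM, y axis from 0) of *Ccl11* and *Cxcl14* in the *Ccl21a* gate and of *Cxcl13*, *Ccl17* and *Cxcl9* in the *Aire* gate against the week of collection; grey circles are isotype controls, red squares anti-RANKL libraries, bars 95% Poisson intervals, and crosses the level without the cell with the most UMIs. *Ccl11* lies between 62.6 and 90.1 at weeks 2 to 6 against 565 and 514 in the controls, and the cross of *Ccl17* at week 4 (10.6) rests on few UMIs.

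Other genes of the chemokine system were taken from lists of the gene family and its receptors. Of 31 other chemokine genes 15 passed the level filter and were tested between gates, and of 22 receptors 1, the scavenging receptor *Ackr4*, was tested. For the *Ccl21a* gate against the *Aire* gate 4 other chemokines were higher (*Ccl7*, *Cx3cl1*, *Cxcl12*, *Cxcl16*) and 5 lower (*Ccl1*, *Ccl25*, *Ccl27a*, *Cxcl1*, *Cxcl2*), where 21.8% of all genes were higher and 16.3% lower, with a median difference of -0.33 against 0.10 over all genes. For the *Krt10* gate 3 were higher and 6 lower (23.4% and 18.0% of all genes, median -0.52 against 0.06), and for the *Trpm5* gate 1 and 5 (18.2% and 8.88%, median -0.57 against 0.13), each against the *Aire* gate. Against the *Ccl21a* gate 3 were higher and 4 lower in the *Krt10* gate (12.1% and 13.6% of all genes, median -0.08 against -0.04) and 1 and 5 in the *Trpm5* gate (13.8% and 8.95%, median -0.15 against 0.04), and 0 were higher and 2 lower in the *Trpm5* gate than in the *Krt10* gate (16.0% and 8.75%, median 0.05 against 0.09). *Ackr4* was higher than in the *Aire* gate by 0.77 in the *Ccl21a* gate (adjusted p = 0.032), by 1.88 in the *Krt10* gate (adjusted p = 1.1e-05) and by 1.65 in the *Trpm5* gate (adjusted p = 0.0001), and higher than in the *Ccl21a* gate by 1.11 in the *Krt10* gate (adjusted p = 0.0054) and 0.88 in the *Trpm5* gate (adjusted p = 0.023). It is also on the list of cortical epithelial markers.

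Of both lists together, the highest mean levels over the libraries were those of *Ccl21a*, which defines a gate, *Cxcl10*, *Ccl19*, *Ccl25*, *Ccl27a*, *Cxcl2*, *Cxcl12* and *Cxcl1*. *Cxcl10*, like *Cxcl9* a CXCR3 ligand, was 806 and 840 in the isotype controls and 994, 623, 644 and 693 at anti-RANKL weeks 2, 4, 6 and 10. *Ccl19*, a CCR7 ligand, was 468 and 564 in the controls and 631, 852, 909 and 532. *Cxcl2* was 292 and 320 in the controls and 64.9, 37.2, 63.8 and 259, a course with its lowest value at week 4 as for most of the chemokines above. *Cxcl12* was 46.3 and 83.1 in the controls and 202, 290, 219 and 104, above both controls at each time, as *Cxcl14* was. *Ccl25* (365 and 461 in the controls) was 431, 408, 199 and 507, *Ccl27a* (377 and 318) was 164, 163, 202 and 433, and *Cxcl1* (153 and 122) was 82.1, 104, 48.5 and 110.

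The genes whose pattern over the 28 sums was most like a chemokine's, by Pearson's r of log2(level + 10) among 8817 genes, are given as a description, since the sums share libraries and depth and were cut by gates on 4 genes, which a gene of a gate follows by construction. They were *Pla2g1b* (r = 0.88), *Qrfpr* and *Acacb* for *Ccl17*, and *Klk4*, *Apoa1* and *Dppa3* (each with r from 0.88 to 0.89) for *Cxcl13*. For *Ccl20* they were *Myl7* (0.89), *Fabp12* and *Gjb2*, for *Ccl5* *AW112010* (0.82), *Dusp22* and *Aim1*, and for *Ccl2* *Serpinb9b* (0.90), *Cd209g* and *Slc24a1*. *Ccl11* was most like *Sprr2a3* (0.81), *Chil4* and *Sult5a1*. *Cxcl14* was most like *Fth1* (0.90), *Col6a1* (0.89) and *Ccl21a* (0.89), on which its gate is cut, and *Cxcl9* like *Gbp4* (0.77), *Tmem173* (0.76) and the member *Ccl5* (0.74).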

How the data were processed

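Single-cell RNA-seq was done on 7 libraries (10x Genomics). Per the submitters' notes the authors used Cell Ranger 2.2.0 with mm10 and Seurat 2.3.4. The deposited values were natural log values, ln(1 + UMIs per 10000 of the cell), and whole UMIs were recovered in every cell (tolerance 0.001). The study's methods give another scale factor than the values show. Tables combining libraries were not used here. UMIs were summed per gate and library with at least 20 cells (3 or more cells were needed for a gene to be listed in a library). Gates were compared by limma 3.58.1 (R 4.3.3; log2(CPM + 10), mean of at least 10, library block, gate genes left out, Benjamini-Hochberg over all genes), tested on simulated data first. P-values measure the spread between these libraries. The time course has 1 library a time and no test; both isotype controls are shared by its 4 comparisons. Poisson intervals and floors of 3 counts cover counting error only, and no doublets were removed here. The chemokines, marker lists and tests were chosen with earlier results of these data known. The genes named were the 10 chemokines, the 8 other chemokines or receptors with the highest mean level, the 3 most similar genes of each chemokine, and marker genes. Other genes, and single cells, were named after their values were seen. Alternatives included other gates, thinning, scalings and leaving out each library. Sums and intervals came from scipy 1.17.1 and pandas 2.3.3 under Python 3.11.15, and figures from matplotlib 3.10.9.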

Additional observations from a re-analysis of the deposited data

Results flagged for a closer look

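For 3 comparisons of gates the isotype controls lay on one side and all 4 anti-RANKL libraries on the other. These differences were not tested. For *Cxcl14* the *Trpm5* gate was below the *Aire* gate in both controls (4.06 against 6.42 and 1.85 against 5.72 CPM) and above it in the anti-RANKL libraries (40.2 against 2.52, 45.7 against 21.2, 29.1 against 17.9 and 31.3 against 5.20), and the mean difference was -28.0 in controls relative to treated libraries. Of the 158 *Trpm5* cells at week 2, 58 also passed the *Ccl21a* gate, and in cells of exactly 1 gate the pattern was lost, with 15.2 against 16.3 at week 4 and 0 against 8.95 at week 6. For *Cxcl13* the *Krt10* gate was above the *Ccl21a* gate in the controls (76.0 against 4.84 and 28.2 against 3.71) and had lower values than it in the anti-RANKL libraries, at 0 in 3 and 8.58 in the other, a difference of 54.5. At those zeros 3 counts would be 16.7, 13.0 and 43.1 CPM, above the 2.18, 1.02 and 5.08 of the *Ccl21a* gate at weeks 2, 4 and 6, so that they do not show which gate was lower. In both controls 1 cell held at least 91.7% of the *Cxcl13* UMIs of the *Krt10* gate. For *Ccl5* the *Trpm5* gate was below the *Ccl21a* gate in the controls (117 against 164 and 141 against 597) and above it in the anti-RANKL libraries (73.5 against 42.1, 88.1 against 36.7, 186 against 125 and 757 against 607), a difference of -325. In the week 10 control 1 cell held 70.9% of the *Ccl5* UMIs of the *Ccl21a* gate, and the 597 became 174 without it. At anti-RANKL week 10, 89.4% of the *Ccl5* UMIs of the *Trpm5* gate came from 1 cell, and without it the level was 80.4. In cells of exactly 1 gate this pattern was lost too, since *Ccl5* was lower in the *Trpm5* gate at weeks 4 (25.4 against 32.2), 6 (76.9 against 139) and 10 (71.7 against 214).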

How the results depend on the processing

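No called difference changed direction. Of the member comparisons called in the report, 307 of 360 repeats under another setting were still called and 53 lost their call, mostly *Cxcl9* against the *Aire* gate, *Ccl17* of the *Trpm5* gate and *Ccl20* of the *Krt10* gate, and of 594 repeats of comparisons not called there 70 were called; 151 counts of called members stayed within 1.5 times and 51 did not. The causes were not tested. The 5 members called between the *Ccl21a* and *Aire* gates became 8 with means over cells, voom weights or thinning, where 9 members were tested with means over cells or thinning in place of 8, and voom weights called 3468 genes higher and 2419 lower in place of 1917 and 1436. The 3 called between the *Krt10* and *Aire* gates became 5 with cells of exactly 1 gate or thinning. The 3 between the *Trpm5* and *Aire* gates became 5 with cells of exactly 1 gate, median-of-ratios size factors, thinning or the top cell left out, 6 with means over cells, 7 with voom weights and 1 without the library block. The 3 between the *Krt10* and *Ccl21a* gates became 5 with cells of exactly 1 gate, and the 3 between the *Trpm5* and *Ccl21a* gates 5 with those cells or means over cells and 6 with voom weights. The 1 higher between the *Trpm5* and *Krt10* gates, *Ccl17*, became 0 without immune marker cells, with a pseudocount of 50, with thinning, without the library block, without the 4 anti-RANKL libraries or without the top cell, and its call was also lost with voom weights, which called 2 others, both lower, and with cells of exactly 1 gate (adjusted p = 0.16), where *Ccl20* was lower. Leaving out 1 library gave 5 to 6 (*Ccl21a* and *Aire*), 2 to 5 (*Krt10* and *Aire*, 5 without anti-RANKL week 2), 2 to 4 (*Trpm5* and *Aire*, *Krt10* and *Ccl21a*, *Trpm5* and *Ccl21a*) and 0 to 2 (*Trpm5* and *Krt10*, 0 without anti-RANKL week 10 and 2 without week 4).

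In the time course the 2 members lower at week 2 became 7 with means over cells, thinning or a 1.5-fold limit, 4 without immune marker cells or with *Ptprc* cells kept, and 5 without the top cell (*Ccl22* and *Ccl5* joined in all of these but that with *Ptprc* cells kept, *Cxcl9* in all but that without immune marker cells); leaving out 1 control gave 2 to 5, the 5 without the week 2 control. At week 10 the 0 lower became 2 without immune marker cells or at 1.5-fold, 1 with thinning and 1 without either control, and the 2 higher became 1 without immune marker cells, where the 1 higher at week 6 became 0; there *Cxcl13* missed the filter and was counted at no time, *Ccl11* was lower at weeks 2, 4 and 6, and *Cxcl14* was higher at weeks 2 and 4 alone. Within the *Ccl21a* gate 2 were lower at weeks 4 and 6 and 0 higher at weeks 2, 4, 6 and 10. Within the *Aire* gate 3 were higher at week 2, 3 lower at week 4, 2 higher at week 6, and 1 lower and 0 higher at week 10. The top-cell and within-gate settings were chosen after seeing the data. No paired analysis was possible because each anti-RANKL time is a group of 1 library, so that its week-matched control (weeks 2 and 10) makes a single pair with no spread; the library block pairs gates within a library. Depth sets floors of up to 43.1 CPM (3 counts, *Krt10* gate of anti-RANKL week 6), the same for every gene.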
